A study of Mus musculus with 15 samples.

Results

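The 39 genes described here are expressed by the endothelial cells that line blood vessels or act in vascular signalling, the Notch pathway included. They were listed by gene symbol and comprise 23 endothelial identity genes, which mark the cell type, and 16 activation and signalling genes, whose levels are known to follow angiogenic, flow or Notch signals. The list and its classes were chosen with earlier results of these data known. All 39 were found among the 42396 gene entries of each of 2 count tables, one for males and one for females, and all 39 had counts high enough to be tested in both. The comparison asked whether activation genes moved apart from identity genes in C-del muscle. Expression was measured by RNA-seq of the tibialis anterior, a muscle of the lower leg, from adult C57BL/6 mice sampled 2 months after AAV6 was injected into the hindlimb. AAV6 is an adeno-associated viral vector that transduces muscle fibres well, and here it carried either EGFP (mock) or a form of LSMEM2 named C-del. Libraries numbered 4 for mock and 4 for C-del in the male table, and 3 for mock and 4 for C-del in the female table. All of them had received vector, the labels name no promoter, and they do not say what C-del lacks. The labels also do not say whether each library came from its own animal, so p-values measure the spread between libraries, which may be technical. Since each sex is a separate table, a difference between the sexes cannot be told apart from one between the tables. The male columns match the sample labels by group and not one by one, so they are numbered as columns.

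Endothelial cells respond to vascular endothelial growth factor (VEGF) through the receptors KDR and FLT1 and to angiopoietins through TEK and its relative TIE1. In a sprouting vessel, VEGF raises the Notch ligand DLL4 in the leading cell, DLL4 activates NOTCH1 on its neighbours, and HEY1 is transcribed there in turn, while JAG1 is a competing ligand. ETS and SOX factors maintain endothelial transcription, and skeletal muscle fibres are wrapped in a dense capillary bed, so endothelial RNA is a regular part of a whole-muscle library. In such bulk samples, fewer endothelial cells and less RNA per cell cannot be told apart.

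The sequences below are the 250 bases before the transcription start of the 5 members that passed a test described further on, have a single start in the RefSeq table of promoters for GRCm38.p6, and whose window holds none of their own annotated exons. That table held 21 of the 39 members. The windows were chr14:103843702-103843951, minus strand for Ednrb, chr6:55336049-55336298, plus strand for Aqp1, chr5:147726012-147726261, minus strand for Flt1, chr2:119325534-119325783, plus strand for Dll4 and chr16:18776597-18776846, plus strand for Cldn5. Each is written 5′ to 3′ on the gene's strand, with every match to a searched motif in capitals.
Ednrb: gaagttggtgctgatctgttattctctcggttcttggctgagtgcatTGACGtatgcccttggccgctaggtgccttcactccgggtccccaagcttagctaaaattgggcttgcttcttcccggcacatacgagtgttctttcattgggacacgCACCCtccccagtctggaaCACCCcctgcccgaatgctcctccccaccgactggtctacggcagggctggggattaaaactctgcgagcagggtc
Aqp1: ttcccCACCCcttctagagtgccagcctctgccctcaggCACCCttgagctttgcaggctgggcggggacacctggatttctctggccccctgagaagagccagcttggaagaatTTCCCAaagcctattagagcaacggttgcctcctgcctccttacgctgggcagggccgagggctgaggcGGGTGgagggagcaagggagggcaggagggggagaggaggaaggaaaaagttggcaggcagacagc
Flt1: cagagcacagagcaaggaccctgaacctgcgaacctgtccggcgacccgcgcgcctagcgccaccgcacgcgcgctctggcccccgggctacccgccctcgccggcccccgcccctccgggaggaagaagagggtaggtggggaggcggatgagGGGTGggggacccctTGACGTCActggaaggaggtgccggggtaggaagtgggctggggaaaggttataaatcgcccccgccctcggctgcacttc
Dll4: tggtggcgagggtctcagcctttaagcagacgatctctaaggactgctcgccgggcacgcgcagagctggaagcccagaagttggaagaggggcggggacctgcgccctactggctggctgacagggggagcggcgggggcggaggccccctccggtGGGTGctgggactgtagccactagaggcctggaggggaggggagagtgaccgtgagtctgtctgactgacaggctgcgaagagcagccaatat
Cldn5: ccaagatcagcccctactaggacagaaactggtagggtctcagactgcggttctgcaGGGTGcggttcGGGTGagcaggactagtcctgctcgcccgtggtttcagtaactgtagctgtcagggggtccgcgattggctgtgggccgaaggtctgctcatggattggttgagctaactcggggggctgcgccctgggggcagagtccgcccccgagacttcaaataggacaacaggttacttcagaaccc
The motifs searched on both strands were TGACGTCA (the cAMP response element), TGACG (its shorter form, which also lies inside TGACGTCA), TGANTCA (bound by AP-1), TGGGAA (bound by the Notch partner RBPJ), CCGGAA (bound by ETS factors), ACAAT (bound by SOX factors) and CACCC (bound by KLF and SP factors). TGACGTCA began 81 bases before the start of Flt1 and was present in 1 of the 26 windows of members, against 1.55% of the 32851 windows in the table. TGACG was present in 6 of 26 (17.8% of all windows), at 203 bases before the start of Ednrb among them. TGGGAA was present in 9 of 26 (21.6%), at 135 bases before the start of Aqp1 among them, and in neither the Dll4 nor the Ednrb window. TGANTCA was present in 0 of 26 (6.75%), CCGGAA in 2 (12.03%), ACAAT in 7 (27.7%) and CACCC in 16 (52.0%). The Dll4 window overlaps an exon of Gm14207, a transcript of the opposite strand. These matches describe the letters only.

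Totals were 14297620 to 17744015 counts in male and 9285145 to 12054871 in female libraries. Levels are given as CPM, the count as parts per 1000000 of a library size scaled by the TMM method. The delivered gene Lsmem2 stood at 28.5 to 29.7 CPM in male mock and 481 to 2355 CPM in male C-del libraries, and at 30.0 to 32.8 CPM in female mock and 1361 to 2705 CPM in female C-del libraries. The label of skeletal muscle was checked against marker genes because the extraction protocol speaks of hearts: the summed level of 6 skeletal muscle markers was 114380 to 157570 CPM, while 6 heart markers summed to 8.11 to 30.3 CPM and Myl7, a defining marker of the atria, stood at 0 in 14 of 15 libraries. Among female mock libraries, the summed level of 23 leukocyte markers was 92.0, 1278 and 392 CPM in libraries 1, 2 and 3, against 61.8 to 123 CPM in female C-del libraries. Female mock library 3 was also low in long transcripts. Across 12547 genes its difference from the mean of the other female libraries had a Spearman correlation of -0.58 with transcript length, and across the 39 members one of -0.65, while in the other 14 libraries the member value lay between -0.19 and 0.41. In males, 12 tendon and fibroblast markers summed to 2490 and 1841 CPM in mock columns 3 and 4 and to 1070 to 1388 CPM in the other 6, and leukocyte markers to 206 and 230 CPM in C-del columns 1 and 2 and to 64.6 to 96.5 CPM in the other 6. The part of these differences in the results below was not tested.

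**Figure D1:**
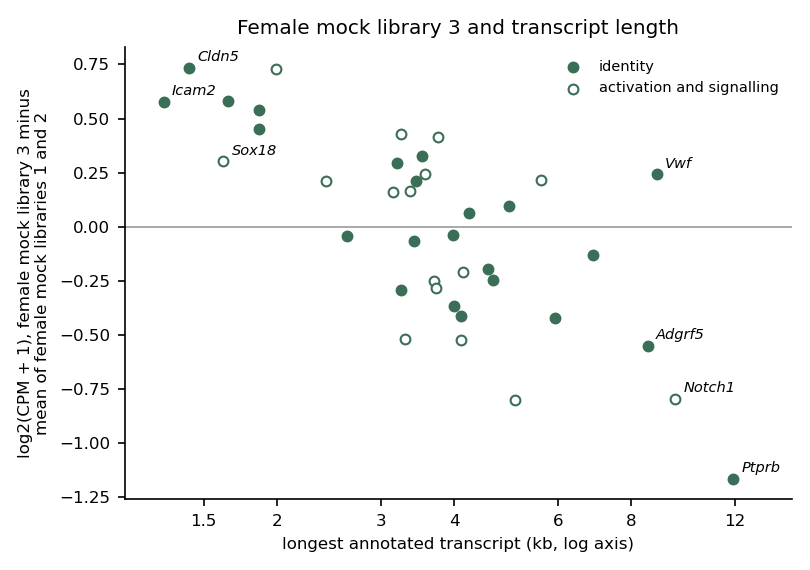
Difference of female mock library 3 from the mean of female mock libraries 1 and 2, in log2(CPM + 1), against the longest annotated transcript in kb, for the 39 genes (filled, identity; open, activation and signalling). Ptprb, with the longest transcript, lies lowest at -1.17 and Cldn5, among the shortest, lies at 0.74.

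In males, the activation genes did not move as one group. Ednrb rose 2.09-fold, Bcl6b 2.002-fold and Apold1 1.46-fold, while the apelin receptor Aplnr, the SOX factors Sox7 and Sox18 and the Notch ligands Jag1 and Dll4 fell, and the 20 identity genes that did not pass lay between -0.14 and 0.24 on the log2 scale. Of the 16 activation and signalling genes 3 rose and 7 fell at an adjusted p under 0.05 in edgeR, and of the 23 identity genes 1 rose and 2 fell. Over all 39 that is 4 higher, where 5.8% of the 14543 genes tested in males were higher, and 9 lower, where 5.37% were lower. Without mock columns 3 and 4, which had the most tendon marker RNA, 6 were higher (2.62% of 14984 genes tested), with the identity genes Emcn and Flt1 added, and 4 lower (2.5%), with Sox18, Cldn5, Ets1, Nos3 and Clec14a no longer passing. In a fit of all 15 libraries the male effect passed for 3 higher (1.4%) and 4 lower members (1.09%). The median log2 fold change was 0.01 for identity genes, -0.19 for activation and signalling genes and -0.0047 for all genes tested. The C-del and mock columns did not overlap for 17 members, of which 8 were higher in all C-del columns (as were 9.05% of genes tested) and 9 lower (8.51%).

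In females the same 3 activation genes stood highest, with Apold1 far ahead, and identity genes were shifted upward as well, but no member passed the test. With edgeR 0 of 39 were higher (0.0141% of 14220 genes tested in females) and 0 were lower (0.0%). At an unadjusted p under 0.05, 12 were higher (4.81% of genes tested) and 2, Sox18 and Aplnr, were lower (7.09%). DESeq2 called 7 higher (Apold1, Bcl6b, Ednrb, Aqp1, Adgrf5, Flt1 and Cdh5; 0.717% of 17422 genes with an adjusted p) and 1, Sox18, lower (2.2%). All C-del values exceeded all mock values for 13 members (5.71% of genes tested), and the reverse held for 2 (4.39%). The median log2 fold change was 0.25 for identity genes, of which 21 of 23 were above 0, 0.02 for activation and signalling genes, of which 8 of 16 were above 0, and -0.01 for all genes tested. Without female mock libraries 2 and 3 the medians were 0.22 (20 of 23 above 0) and 0.11 (10 of 16), in a fit with a single mock library whose spread was assumed to be that of the C-del libraries. Leaving out female mock library 1 instead gave 7 passing members: Ednrb, Apold1, Bcl6b, Aqp1, Adgrf5 and Flt1 higher (0.775% of 14706 genes tested) and Sox18 lower (6.36%), with 1050 genes called in all against 2 with every library.

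Averaged over the sexes in a fit of all 15 libraries, 6 members rose (Apold1, Bcl6b, Ednrb, Aqp1, Adgrf5 and Flt1; 2.42% of 15272 genes tested were higher) and 3 fell (Aplnr, Sox18 and Sox7; 1.99% were lower). Of these, 3 of the 6 higher genes were identity genes and none of the 3 lower ones. Medians of the average effect were 0.15 for identity genes (19 of 23 above 0), -0.15 for activation and signalling genes (5 of 16 above 0) and -0.02 for all genes. The female minus male difference passed as higher for 2 members, Apold1 and Jag1 (0.17% of genes tested), and as lower for 0 (0.183%). With or without passing, it was above 0 for 29 of 39 members. Both sexes gave the same sign for 25 of 39 members, and 9 of the 13 that passed in males had the same sign in females, the exceptions being Cldn5, Nos3, Dll4 and Jag1. The matching shares over all genes tested were not computed, so no conclusion is drawn from these sign counts.

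**Figure D2:**
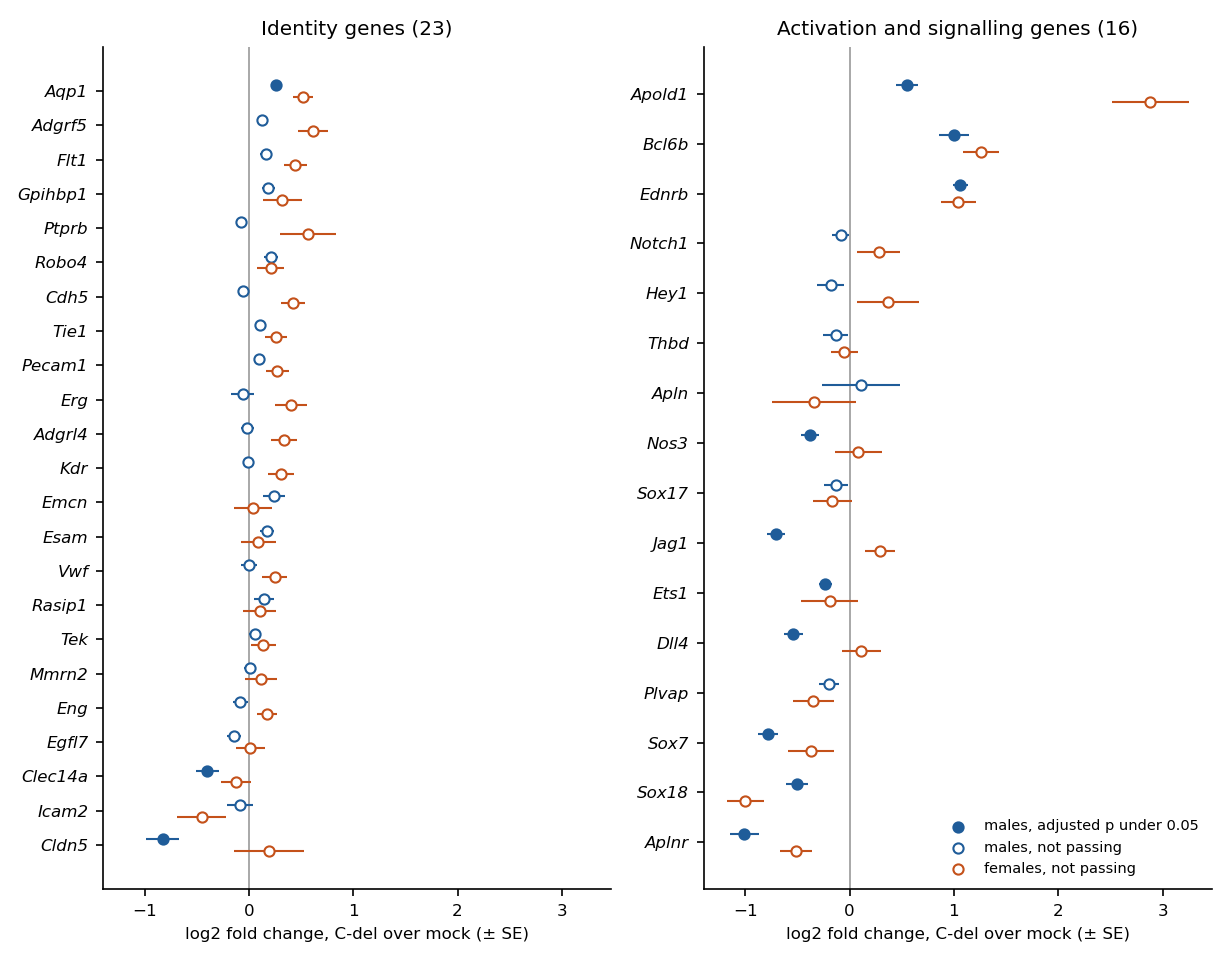
Log2 fold change of C-del over mock with its SE in males (blue) and females (orange) for the 23 identity genes (left) and 16 activation and signalling genes (right), ordered by the average effect; filled points passed at an adjusted p under 0.05. Apold1, Bcl6b and Ednrb lie highest in both sexes, while Aplnr, Sox18 and Sox7 lie below 0 in both.

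**Figure D3:**
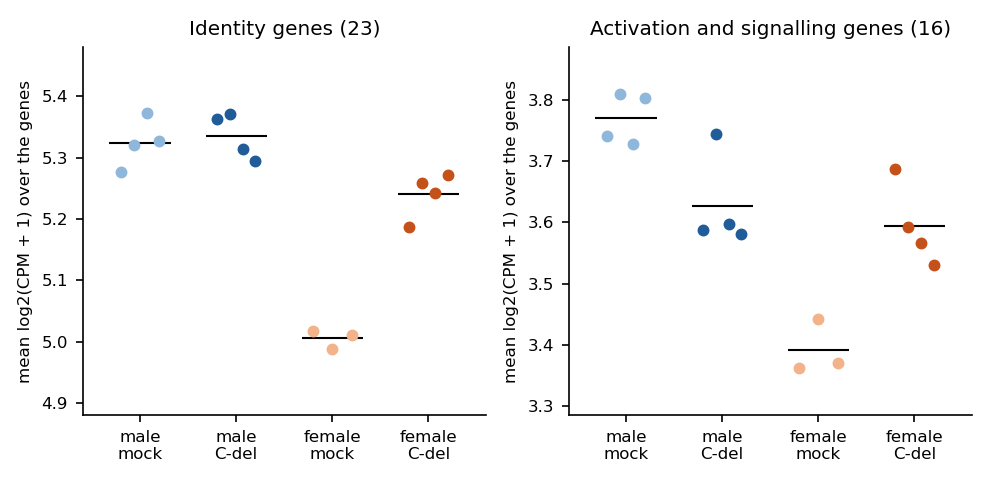
Mean log2(CPM + 1) over the identity genes and over the activation and signalling genes in each library (points) with the group mean (line). The identity mean was 5.28 to 5.37 in both male groups, and 4.99 to 5.02 in female mock against 5.19 to 5.27 in female C-del libraries; axes do not start at 0.

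The identity mean on the log2(CPM + 1) scale was 5.32 ± 0.04 (SD, n = 4) in male mock columns, 5.34 ± 0.04 (n = 4) in male C-del columns, 5.01 ± 0.02 (n = 3) in female mock libraries and 5.24 ± 0.04 (n = 4) in female C-del libraries. The activation mean was 3.77 ± 0.04 and 3.63 ± 0.08 in the male groups and 3.39 ± 0.04 and 3.59 ± 0.07 in the female groups. The male groups overlapped for both means and the female groups for neither. The female activation mean rested largely on Apold1, and without it was 3.46 ± 0.03 in mock and 3.50 ± 0.06 in C-del libraries, which overlapped, while the male groups, at 3.77 to 3.85 in mock and 3.57 to 3.73 in C-del columns, then did not. Aqp1 alone supplied 33.8% to 40.4% of the summed counts of identity genes, and without it the identity sum was 1130 to 1194 CPM in male mock, 1163 to 1206 CPM in male C-del, 766 to 857 CPM in female mock and 972 to 1053 CPM in female C-del libraries.

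Among inducible and vasoactive genes, Apold1 had the highest fold change in females and on average, and Ednrb in males. Apold1 (chromosome 6, 134982001 to 134986836 on GRCm38.p6) encodes a membrane protein of endothelial cells and is known as an early response gene of stressed endothelium. Apold1 in the male mock columns stood at 9.31, 8.32, 7.98 and 9.03 CPM and in the male C-del columns at 12.8, 14.7, 12.3 and 10.9 CPM. In the female mock libraries Apold1 stood at 2.63, 5.44 and 4.73 CPM and in the female C-del libraries at 41.3, 36.8, 16.1 and 33.4 CPM. Neither pair of groups overlapped, and female C-del library 3 was the lowest of its group. It rose 1.46-fold in males (log2 0.55 ± 0.10, SE; edgeR adjusted p = 0.00347). The female difference was 7.38-fold (log2 2.88 ± 0.37, SE; unadjusted p = 2.94e-05, edgeR adjusted p = 0.0686), and the adjusted p became 0.00729 without female C-del library 3 and 0.00337 without female mock library 1. The female minus male difference was 2.33 ± 0.38 on the log2 scale (SE, edgeR adjusted p = 0.0215). That difference missed the threshold in 4 of 21 alternative settings, in each with 1 library left out, at an adjusted p of up to 0.0616.

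Ednrb (chromosome 14, 103814615 to 103844508) encodes the endothelin B receptor, which on endothelium clears endothelin and releases nitric oxide. Ednrb in the male mock columns stood at 13.4, 13.1, 12.8 and 13.5 CPM and in the male C-del columns at 26.9, 30.3, 27.5 and 25.6 CPM. The female mock libraries had 11.0, 9.56 and 6.82 CPM of Ednrb and the female C-del libraries 18.8, 20.1, 17.6 and 18.8 CPM. In both sexes every C-del value lay well above every mock value. The rise was 2.09-fold in males (log2 1.06 ± 0.069, SE; edgeR adjusted p = 4.53e-07) and the female fold was nearly the same at 2.06 (log2 1.04 ± 0.16, SE; adjusted p = 0.0972), with an average of 1.05 ± 0.079 (SE; adjusted p = 1.37e-06). The female minus male difference was -0.02 ± 0.16 (SE; adjusted p = 0.955).

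Aplnr (chromosome 2, 85136360 to 85139923) encodes the receptor of the peptide apelin, which acts in vessel growth and vascular tone. Aplnr in male mock columns stood at 22.4, 25.0, 21.8 and 22.7 CPM, and male C-del columns had 14.2, 13.0, 8.11 and 10.2 CPM. Aplnr in female mock libraries stood at 16.2, 16.7 and 13.6 CPM, and female C-del libraries had 9.84, 10.8, 13.2 and 9.57 CPM. All C-del values lay below all mock values of their sex, with the narrowest gap in females, where C-del library 3 came close to mock library 3. It fell 2.01-fold in males (log2 -1.01 ± 0.14, SE; edgeR adjusted p = 0.00114) and on average (log2 -0.76 ± 0.11, SE; adjusted p = 0.000734), and the female value was -0.52 ± 0.15 (SE; adjusted p = 0.212). Apln, the gene of its ligand apelin, stood at 0.845 to 5.78 CPM over all 15 libraries, with log2 fold changes of 0.11 in males and -0.34 in females and an SE of 0.37 or more, the least precise of the members.

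Nos3 (chromosome 5, 24364816 to 24384474), which encodes endothelial nitric oxide synthase, stood at 14.8, 18.98, 17.1 and 16.2 CPM in male mock and 13.3, 13.0, 13.7 and 11.5 CPM in male C-del columns. In females Nos3 stood at 14.49, 7.28 and 8.80 CPM in mock and 10.02, 10.3, 12.3 and 10.3 CPM in C-del libraries. The male groups did not overlap, while female mock library 1 was above and mock libraries 2 and 3 below every C-del library. It fell 1.30-fold in males (log2 -0.38 ± 0.089, SE; edgeR adjusted p = 0.0134), and the female value was 0.08 ± 0.23 (SE; adjusted p = 0.906). Exons of genes on the opposite strand cover 32.3% of the exon bases of Nos3, and whether strand was used in counting is not given in the sources used here, so its value is less sure. Thbd, which encodes the anticoagulant receptor thrombomodulin, stood at 18.6 to 40.2 CPM with log2 fold changes of -0.13 and -0.05 (adjusted p = 0.539 and 0.902 with edgeR).

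Among transcription factors, Bcl6b rose in males while Sox7, Sox18 and Ets1 fell. Bcl6b (chromosome 11, 70224127 to 70229798), which encodes a BTB zinc finger repressor enriched in endothelium, stood at 2.78, 3.09, 2.73 and 3.06 CPM in male mock and 6.06, 7.03, 5.23 and 5.0005 CPM in male C-del columns. In females Bcl6b stood at 4.17, 4.65 and 5.06 CPM in mock and 12.9, 12.1, 9.64 and 9.67 CPM in C-del libraries. Neither pair of groups overlapped. The rise in males was 2.002-fold (log2 1.002 ± 0.14, SE; edgeR adjusted p = 0.000418), the female value was 2.39-fold (log2 1.26 ± 0.17, SE; adjusted p = 0.0686), and the average was 1.13 ± 0.11 (SE; adjusted p = 1.13e-05). The tables list Bcl6b at a second locus that shares its reads, 43 and 43 counts in male mock column 1, so its CPM here is about 1 entry's share. With both entries summed, the female call passed at an adjusted p of 0.0499 (log2 1.25).

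Sox7, Sox17 and Sox18 encode the SOXF factors of endothelium. Sox7 (chromosome 14, 63943706 to 63950732) stood at 12.9, 12.9, 11.9 and 12.3 CPM in male mock and 6.38, 6.92, 8.04 and 7.85 CPM in male C-del columns, which did not overlap. Female values of Sox7 were 10.4, 8.51 and 6.27 CPM in mock and 8.23, 6.34, 6.17 and 5.24 CPM in C-del libraries, which overlapped because mock library 3 lay among the C-del values. It fell 1.71-fold in males (log2 -0.78 ± 0.095, SE; edgeR adjusted p = 0.00014) and on average (log2 -0.57 ± 0.11, SE; adjusted p = 0.00689), with a female value of -0.37 ± 0.22 (SE; adjusted p = 0.541). Sox18 (chromosome 2, 181669837 to 181671640) stood at 11.8, 16.4, 13.8 and 14.4 CPM in male mock and 9.80, 8.90, 9.91 and 11.0 CPM in male C-del columns. Female values of Sox18 were 11.2, 11.4 and 14.2 CPM in mock and 5.01, 5.33, 7.02 and 7.15 CPM in C-del libraries. All C-del values lay below all mock values of their sex, by a wider margin in females. Sox18 fell 1.42-fold in males (log2 -0.51 ± 0.10, SE; edgeR adjusted p = 0.00648) and on average (log2 -0.75 ± 0.10, SE; adjusted p = 0.000483), with a female value of -0.999 ± 0.18 (SE; adjusted p = 0.12). Sox17 stood at 4.73 to 7.37 CPM with log2 fold changes of -0.13 and -0.16 (edgeR adjusted p = 0.513 and 0.752). Of the family, Sox7 and Sox18 passed in males and Sox17 did not, and the difference between the genes was not tested.

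Ets1 (chromosome 9, 32636241 to 32757820) encodes an ETS factor of endothelium that lymphocytes also express. Ets1 in male mock columns was at 29.2, 32.3, 33.6 and 31.5 CPM and in male C-del columns at 26.2, 27.5, 26.4 and 27.6 CPM, without overlap. Female mock libraries had 26.5, 54.1 and 21.3 CPM of Ets1 and female C-del libraries 30.1, 28.3, 30.0 and 31.3 CPM. The highest value was that of female mock library 2, which had the most leukocyte marker RNA, and its part in the difference was not tested. Ets1 fell 1.17-fold in males (log2 -0.23 ± 0.059, SE; edgeR adjusted p = 0.0206), and the female value of -0.19 ± 0.28 (SE; adjusted p = 0.808) turned to 0.32 without that library. The male call was kept in 12 of 17 alternative settings.

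The log2 fold changes of the 4 Notch members lay below 0 in males and above 0 in females, with medians of -0.36 and 0.29. Of the 4, 2 passed as lower in males, where 5.37% of all genes tested were lower. In females 0 of 4 passed, where 0.0141% of all genes tested were higher and 0.0% lower. Jag1 (chromosome 2, 137081451 to 137116520), a Notch ligand, stood at 13.3, 14.8, 13.6 and 15.7 CPM in male mock and 8.70, 8.33, 9.11 and 9.01 CPM in male C-del columns. Female values of Jag1 were 7.90, 8.51 and 9.68 CPM in mock and 11.6, 10.5, 11.2 and 9.27 CPM in C-del libraries. The male groups were well apart, while in females the lowest C-del library lay just under the highest mock library. Jag1 fell 1.63-fold in males (log2 -0.71 ± 0.085, SE; edgeR adjusted p = 0.000125), against a female value of 0.29 ± 0.15 (SE; adjusted p = 0.467). The female minus male difference was 0.999 ± 0.15 (SE; adjusted p = 0.0103), and it passed in 21 of 21 alternative settings.

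Dll4 (chromosome 2, 119325784 to 119335666), the Notch ligand of arterial and leading cells, stood at 14.6, 14.9, 15.6 and 15.6 CPM in male mock and 9.93, 8.79, 11.5 and 11.5 CPM in male C-del columns. Female values of Dll4 were 11.9, 11.8 and 16.1 CPM in mock and 17.4, 15.1, 13.7 and 11.0 CPM in C-del libraries. The male groups did not overlap and the female groups did. Dll4 fell 1.45-fold in males (log2 -0.54 ± 0.093, SE; edgeR adjusted p = 0.002), with a female value of 0.11 ± 0.18 (SE; adjusted p = 0.8292) and a female minus male difference of 0.65 ± 0.20 (SE; adjusted p = 0.111). The receptor gene Notch1 stood at 26.4, 25.3, 22.4 and 23.3 CPM in male mock and 19.4, 24.4, 25.5 and 22.4 CPM in male C-del columns. In females Notch1 stood at 15.4, 20.01 and 9.68 CPM in mock and 17.5, 17.7, 20.1 and 17.8 CPM in C-del libraries. Both pairs of groups overlapped (log2 fold changes of -0.09 ± 0.084 and 0.28 ± 0.21, SE; edgeR adjusted p = 0.565 and 0.627). Hey1, a transcriptional target of Notch, stood at 4.46, 4.70, 4.57 and 5.07 CPM in male mock and 3.804, 4.93, 3.75 and 4.01 CPM in male C-del columns. Female libraries had 3.07, 4.56 and 4.51 CPM of Hey1 in mock and 4.29, 3.40, 7.61 and 5.64 CPM in C-del. These groups overlapped too (log2 -0.18 ± 0.13 and 0.37 ± 0.29, SE; edgeR adjusted p = 0.4 and 0.644).

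**Figure D4:**
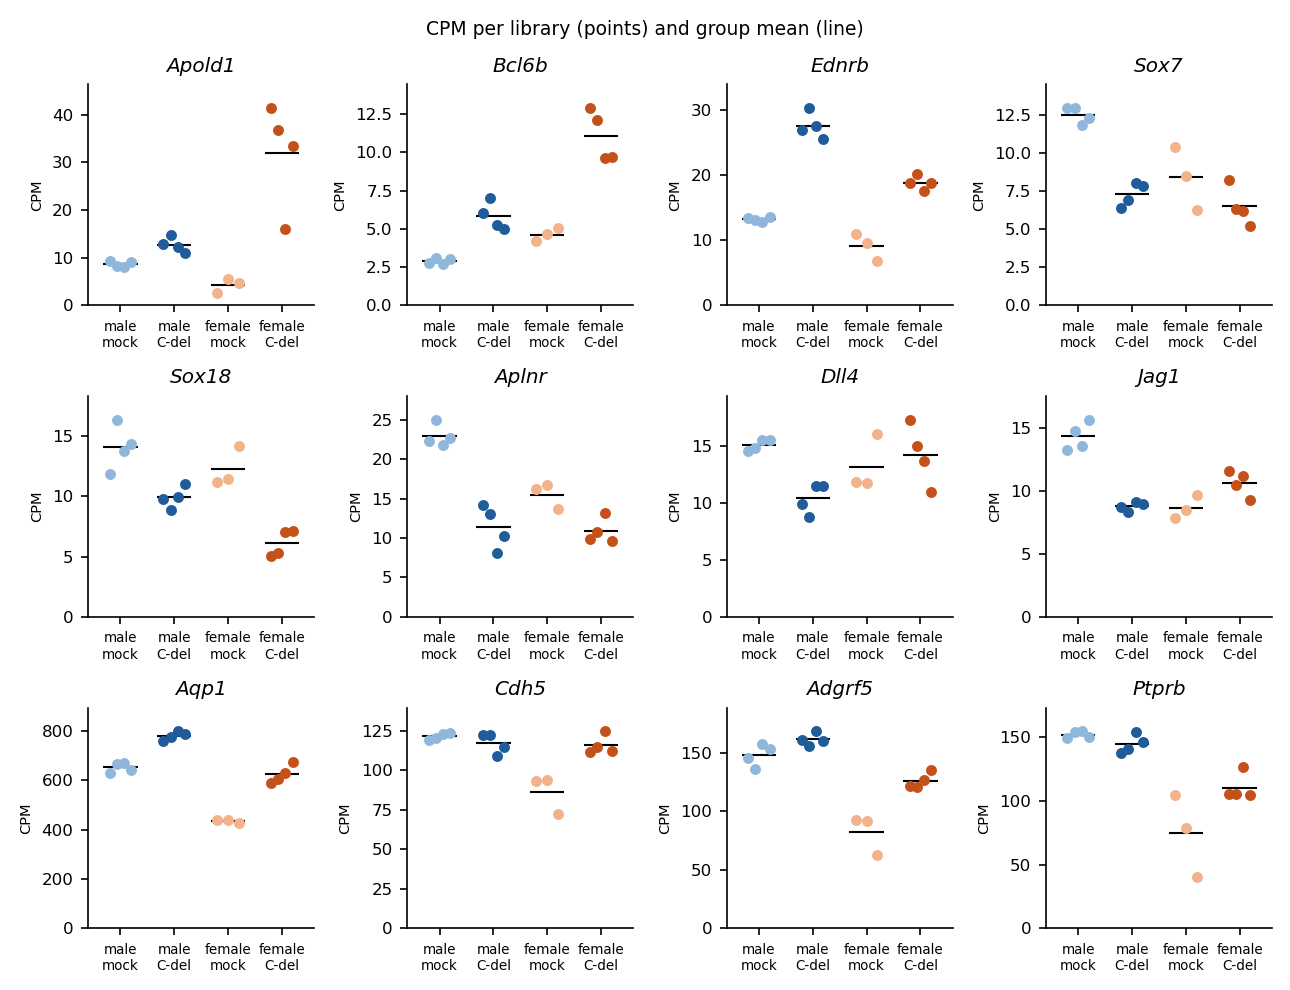
CPM of 12 members in each library (points) with the group mean (line); every axis starts at 0. Apold1, Bcl6b and Ednrb lie above mock in both sexes, Sox18 and Aplnr below, Jag1 and Dll4 lie below mock in males, and Ptprb and Adgrf5 are lowest in female mock library 3.

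Of 24 other Notch pathway genes, 23 were tested in males, where 0 rose (5.8% of all genes tested) and 5 fell (5.37%). In females 22 were tested and 0 passed (0.0141% of all genes tested were higher and 0.0% lower). The 3 with the smallest p in males were the Notch target Heyl (log2 fold change -0.44), the receptor Notch3 (-0.25), which pericytes and smooth muscle express, and the feedback inhibitor Nrarp (-0.48). The median log2 fold change of all tested genes of this list was -0.06 in males and 0.10 in females. In the average fit, 2 rose, the endothelial receptor Notch4 (0.32) and the ligand Dll1 (0.40), and 1 fell, the Notch-modifying enzyme Lfng (-0.74). In that fit 2.42% of all genes tested were higher and 1.99% lower. Mean Lfng was 4.69 CPM in male mock and 4.52 CPM in male C-del columns. In females it was 8.04 ± 3.55 CPM (SD) in mock and 2.975 ± 0.53 CPM in C-del libraries (log2 -1.44, edgeR adjusted p = 0.155). The average thus came mostly from females, whose mock libraries also differed in leukocyte marker RNA. The part of that RNA in the Lfng value was not tested.

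Among VEGF and angiopoietin receptors, Flt1 rose in the average fit and none of the 5 passed in males or in females. Flt1 (chromosome 5, 147561604 to 147726438) encodes a VEGF receptor that also serves as a decoy. Flt1 in male mock columns was at 107, 106, 120.0 and 119 CPM and in male C-del columns at 128, 131, 124 and 124 CPM. Female mock libraries had 74.7, 67.2 and 64.6 CPM of Flt1 and female C-del libraries 85.0, 87.9, 102 and 99.4 CPM. Both pairs of groups were apart, narrowly in males. The average difference was 0.30 ± 0.057 on the log2 scale (SE; edgeR adjusted p = 0.00624), from 0.16 ± 0.051 in males (adjusted p = 0.0576) and 0.44 ± 0.11 in females (adjusted p = 0.167). Ptprb encodes a phosphatase that restrains TEK, and it has the longest transcript of the members. In males Ptprb stood at 149, 154, 155 and 150.1 CPM in mock and 137, 141, 154 and 146 CPM in C-del columns. In females Ptprb stood at 105, 78.8 and 39.9 CPM in mock and 106, 105, 126 and 104 CPM in C-del libraries. Mock libraries 2 and 3 lay below every female C-del library and library 1 among them. The female value of 0.57 ± 0.27 (SE; edgeR adjusted p = 0.449) became 0.27 without female mock library 3, the one low in long transcripts, and 0.08 without libraries 2 and 3. The main VEGF receptor Kdr had log2 fold changes of -0.01 in males and 0.31 in females, the angiopoietin receptor Tek 0.06 and 0.14, and its relative Tie1 0.11 and 0.26, with edgeR adjusted p from 0.203 to 0.924.

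Of the ligands and partners of these receptors, 21 of 23 were tested in males. There 2 rose (5.8% of all genes tested), Vegfa (log2 0.29) and the sphingosine phosphate receptor S1pr1 (0.38). The 2 that fell (5.37%) were the endothelin-converting enzyme Ece1 (-0.23) and the arterial ligand Efnb2 (-0.41). In females 0 of 20 passed (0.0141% of all genes tested were higher and 0.0% lower), with S1pr1 (0.53) and Vegfa (0.43) at the smallest p. S1pr1 (0.46) and Vegfa (0.36) rose in the average fit (2.42% of all genes tested), and the female minus male difference passed for Efnb2 (0.79, with 0.17% higher). Vegfa was measured in whole muscle, where fibres also express it.

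Adgrf5 was the identity gene with the highest female fold change among the 14 junction and surface genes. Adgrf5 (chromosome 17, 43360329 to 43459557) encodes an adhesion G protein-coupled receptor of capillary endothelium. Adgrf5 in male mock columns was at 145, 136, 158 and 153 CPM and in male C-del columns at 161, 156, 169 and 160.5 CPM. Female mock libraries had 92.5, 91.8 and 62.6 CPM of Adgrf5 and female C-del libraries 122, 121, 127 and 136 CPM. The male groups overlapped and the female groups did not, mock library 3 being the lowest. The average rise was 0.37 ± 0.072 on the log2 scale (SE; edgeR adjusted p = 0.00729), from 0.13 ± 0.051 in males and 0.62 ± 0.14 in females (adjusted p = 0.133 and 0.156), and the female value was 0.45 without female mock library 3.

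Cdh5 encodes VE-cadherin, the adhesion molecule of endothelial junctions. In males Cdh5 stood at 119, 121, 123 and 123 CPM in mock and 122, 122, 109 and 115 CPM in C-del columns. In females Cdh5 stood at 92.9, 94.1 and 72.3 CPM in mock and 111, 115, 125 and 112 CPM in C-del libraries. The male groups overlapped, whereas all female C-del values were above the mock values. The log2 fold change was -0.05 ± 0.047 in males and 0.42 ± 0.12 in females (SE; edgeR adjusted p = 0.538 and 0.197). Pecam1, which encodes the surface antigen CD31, had log2 fold changes of 0.10 and 0.27, and its C-del values lay above its mock values in both sexes (98.5 to 103 against 106 to 111 CPM in males and 71.1 to 90.3 against 94.2 to 107 CPM in females), without passing (edgeR adjusted p = 0.159 and 0.372).

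Cldn5 (chromosome 16, 18776847 to 18778262) encodes the claudin of endothelial tight junctions. Cldn5 in male mock columns was at 3.75, 4.16, 4.43 and 4.86 CPM and in male C-del columns at 2.84, 2.72, 1.88 and 2.21 CPM. Female mock libraries had 4.61, 8.95 and 11.4 CPM of Cldn5 and female C-del libraries 13.8, 10.4, 7.02 and 6.85 CPM. The male groups were apart, while the female values spread widely within each group and overlapped. It fell 1.78-fold in males (log2 -0.83 ± 0.16, SE; edgeR adjusted p = 0.00403), and the female value was 0.19 ± 0.33 (SE; adjusted p = 0.845). The female minus male difference did not pass (log2 1.01 ± 0.38, SE; adjusted p = 0.188). A second Cldn5 entry held equal counts in the libraries, 57.5 and 57.5 in male mock column 1, so these CPM are 1 entry's share. Clec14a (chromosome 12, 58264720 to 58269258), a C-type lectin of endothelium that binds the matrix protein encoded by Mmrn2, stood at 9.18, 8.79, 11.6 and 10.6 CPM in male mock and 7.54, 7.09, 8.11 and 7.73 CPM in male C-del columns. In females Clec14a stood at 11.1, 10.9 and 9.46 CPM in mock and 9.75, 10.6, 8.28 and 9.87 CPM in C-del libraries. The male groups did not overlap and the female groups did. Clec14a fell 1.32-fold in males (log2 -0.40 ± 0.11, SE; edgeR adjusted p = 0.0269), a call kept in 9 of 17 alternative settings, and its female value was -0.12 ± 0.14 (SE; adjusted p = 0.753).

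Aqp1 (chromosome 6, 55336299 to 55348555), the water channel of capillary endothelium, was the most abundant member by far. Aqp1 in male mock columns was at 629.6, 666, 671 and 640.5 CPM and in male C-del columns at 758, 773, 798 and 787 CPM. Female mock libraries had 438, 439.9 and 425 CPM of Aqp1 and female C-del libraries 587, 604, 629.9 and 673 CPM. The spread within groups was small and neither pair overlapped. It rose 1.195-fold in males (log2 0.26 ± 0.042, SE; edgeR adjusted p = 0.00125) and on average (log2 0.39 ± 0.045, SE; adjusted p = 0.000104), with a female value of 0.52 ± 0.096 (SE; adjusted p = 0.12). Among the other genes of specialised vessel function, Gpihbp1, which anchors lipoprotein lipase in capillaries, had log2 fold changes of 0.19 and 0.32, Vwf, which encodes von Willebrand factor, 0.00 and 0.25, and Plvap, of the diaphragms of fenestrae, -0.19 and -0.35, with none passing.

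The 26 members that did not pass in males had log2 fold changes there between -0.19 and 0.24, with the smallest edgeR adjusted p at 0.0576 for Flt1. Of the remaining identity genes, Egfl7, a secreted guidance factor for endothelium, had log2 fold changes of -0.14 in males and 0.01 in females, and the TGF-beta co-receptor gene Eng had -0.08 and 0.17. The ETS factor gene Erg had -0.06 and 0.40, again over 1 of its 2 entries. For genes of adhesion and barrier, the values were 0.18 and 0.09 for Esam, -0.08 and -0.45 for Icam2, 0.24 and 0.04 for the sialomucin gene Emcn, and 0.21 and 0.21 for the guidance receptor gene Robo4. Mmrn2 had 0.01 and 0.12, the adhesion receptor gene Adgrl4 had -0.02 and 0.34, and Rasip1, which acts with the GTPase Rap1 in opening the vessel lumen, had 0.14 and 0.10. Exons of other genes cover 42.9% of the exon bases of Rasip1, 16.8% of those of Sox17 and 11.2% of those of Egfl7, so these counts are less sure.

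Where a male mock and C-del group did not overlap, a two-sided exact permutation test on the log2(CPM + 1) values of a single gene gave 0.0286, the smallest p that 4 against 4 libraries allow. For females, 3 against 4 libraries allow no p below 0.0571, so that test cannot pass there. Levels per length, as CPM per kb of annotated exon in male mock columns, ran from 248 for Aqp1 through 28.9 for Cdh5, 20.1 for Eng, 16.4 for Adgrf5 and 16.2 for Pecam1 down to 1.26 for Sox17, 0.895 for Apln and 0.783 for Bcl6b. The Bcl6b value leaves out the reads credited to its further entry, 43 counts against 43 in male mock column 1. It is therefore too low, and its place as the lowest is not sure. Apold1 at 2.43 and Ednrb at 3.10 were also among the lower ones per length.

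Genes of endothelial stress, shear and leukocyte adhesion were listed apart from the 39. Of 30 tested in males 6 rose (5.8% of all genes tested) and 3 fell (5.37%). They were led by the flow-responsive factors Klf4 (log2 1.30) and Klf2 (1.28) and the nuclear receptor Nr4a1 (0.88), which muscle fibres also express. In females 0 of 31 passed (0.0141% of all genes tested were higher and 0.0% lower). The smallest p there was that of Nr4a1 (log2 1.08, edgeR adjusted p = 0.0686). In the average fit 8 of 31 rose (2.42% of all genes tested) and 1 fell (1.99%), the adhesion molecule Icam1 (log2 -0.83, edgeR adjusted p = 0.0315). The lowest log2 fold change of any tested gene in this list was -0.60 in males and -1.37 in females. Markers of pericytes and smooth muscle numbered 15, of which 1 rose (5.8% of all genes tested) and 9 fell (5.37%) in males. In females 0 of the 15 passed (0.0141% of all genes tested were higher and 0.0% lower). The male changes were led by Kcnj8 (-0.41), Pdgfrb (-0.27) and Notch3 (-0.25, also counted above). The summed level of the 15 was 4203 to 4516 CPM in male mock and 4357 to 4713 CPM in male C-del columns. Most of it came from Des, which muscle fibres express. Of 6 lymphatic markers 0 passed in any of the 4 comparisons, and Prox1 stood at 0.828 to 2.78 CPM. Of 23 leukocyte markers 15 were tested and 0 passed in either sex. Of all genes tested, 5.8% were higher and 5.37% lower in males, and 0.0141% and 0.0% in females. In females all 15 were lower at an unadjusted p under 0.05 (7.09% of all genes tested), with a median log2 fold change of -2.60. Jchain and Cd79a reached 354 and 30.7 CPM in female mock library 2 alone. The part of these cell types in the values of the 39 genes and of Icam1 was not tested.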

How the data were processed

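The authors deposited expected counts for each gene entry, meaning estimated counts with fractions. The submitters' processing notes name featureCounts 2.0.0 and the build GRCm38.p6. The aligner and the strand setting of the counting were not given by the sources used here. Between 14.6% and 17.3% of the values in a library were not whole within 0.001, so they were rounded before testing, where the plan had assumed whole counts. Columns of no sample numbered 0.

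The 39 members, their classes and all other gene lists were chosen with earlier results of these data known. Genes were kept by filterByExpr (minimum count 10), scaled with TMM and tested with edgeR 4.0.16 by the robust quasi-likelihood F test, with Benjamini-Hochberg adjustment over all genes tested and a threshold of 0.05. Males and females were fitted alone, and the average and the female minus male effect came from all 15 libraries. An SE is the fitted log2 value over the square root of its F. Full values go to members that pass, to the 5 with the smallest p in females, to the 4 most abundant identity genes and to the 4 Notch genes. Other lists name up to 3 passing genes, or 2 of smallest p.

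Alternatives were DESeq2 1.42.0, its size factors, no filter, scaling on identity genes, a joint fit, a replicate block in females and leaving out libraries. Pairs of libraries of a group differed by a chi-square of 2.48 to 40.2 per gene, so none was treated as a copy. R 4.3.3, limma 3.58.1, Python 3.11.15, scipy 1.17.1 and matplotlib 3.10.9 were used, and the fits were tested on simulated data. Exon lengths and overlaps came from GENCODE and positions from RefSeq, both on GRCm38.p6.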

Additional observations from a re-analysis of the deposited data

Results flagged for a closer look

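The female minus male difference in the C-del effect passed for Apold1 (log2 2.33, edgeR adjusted p = 0.0215; 0.55 in males and 2.88 in females) and for Jag1 (log2 0.999, edgeR adjusted p = 0.0103; -0.71 in males and 0.29 in females). Sex and deposited table cannot be told apart for either.

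In 4 of 117 checked sets of 4 libraries, 1 library lay far from the others for a member, where chance would give 5.85. Egfl7 stood at 34.35 CPM in male C-del column 2 against 28.8 to 29.6 CPM in the other 3. Female C-del library 3 was the highest for the other 3 genes, with Nos3 at 12.3 CPM against 10.02 to 10.3, Notch1 at 20.1 CPM against 17.5 to 17.8, and Ptprb at 126 CPM against 104 to 106.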

How the results depend on the processing

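Over 27 settings, 2847 of 2964 values kept their side of the threshold, 87 gained a call, 27 lost one and 3 reversed. A change of sign was counted as a reversal only where the main or the alternative value passed. Values that passed in neither may thus have changed sign, as that of Ets1 in females did. Of the 13 members that passed in males, 7 passed in the fit of all 15 libraries (3 higher, 4 lower, with 2.49% of all genes called). Without male mock columns 3 and 4, 10 members passed (6 higher, 4 lower against 4 and 9, with 5.12% called). With 1 library left out 11 to 14 passed (9.66% for the highest). In males Aplnr, Aqp1, Bcl6b, Dll4, Ednrb, Jag1 and Sox7 passed in 17 of 17 alternatives, Apold1 in 16, Cldn5 and Nos3 in 15 and Sox18 in 14. In females 0 passed, against 8 with DESeq2 (2.92% of all genes), 2 without the filter (0.0658%), 10 when scaled on the summed identity genes (41.7%), 1 with entries of one gene summed (0.0444%), 8 in the fit of all 15 libraries (5.09%) and 0 to 7 with 1 library left out (7.14% for the highest). For the average, 9 passed, against 21 when scaled on the summed identity genes (56.5% of all genes) and 9 to 14 with 1 library left out, the highest without female mock library 1 (13.2%). That scaling, which Aqp1 dominates, moved the median of all genes by -0.12 in males and -0.40 in females. It reversed Tek (-0.16), Eng (-0.21) and Mmrn2 (-0.20) in the average. Scaling on the mean log of the same genes gave 13 in males (8.6% of all genes), 0 in females (0.0141%) and 13 in the average (14.2%). Of those in the average, 6 were higher (1.38%) and 7 lower (12.8%). For the female minus male effect 2 passed, both higher (0.17% of all genes were higher and 0.183% lower). With DESeq2 5 passed (4.01% of all genes). With 1 library left out 1 to 6 passed, the most without female mock library 1 (11.5%). The replicate block in females gave 0 passing members, as did the same libraries without it. Deviations of same-numbered libraries from their group means correlated at -0.14, -0.01 and -0.05. With 3 libraries per group that check cannot decide whether the numbers pair libraries. Summed entries, mean-log scaling and the run on libraries 1 to 3 were chosen after seeing the data. Precision was lowest for Apln, at 0.845 to 5.78 CPM.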
